A study of Mus musculus with 6 samples.

Results

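This account covers the genes of the oxidative phosphorylation (OXPHOS) system in primary mouse embryonic fibroblasts (MEFs) with and without Kansl1. The genes were chosen by name from an RNA sequencing table of 26898 genes: symbols of nuclear genes for subunits of respiratory complexes I to V, and the protein-coding genes of mitochondrial DNA, kept where expression averaged 1 TPM or more over all samples. TPM is a unit of RNA abundance that corrects for gene length and sequencing depth, so levels of different genes can be compared on this scale. A total of 92 genes met this rule, 79 nuclear and 13 mitochondrial. The names matched 84 nuclear rows. Of these, 4 were under 1 TPM (Ndufa11b, Ndufa4l2, Ndufb2 and Cox4i2), and 1 row with the symbol Ndufa13 carried the Ensembl identifier of another gene, Yjefn3, and was set aside. The table writes the mitochondrial genes without their usual prefix, so they were recognised through their Ensembl identifiers. Complex I was represented by 35 nuclear genes, complex II by 4, complex III by 9, complex IV by 14 and complex V by 17. The mitochondrial genes comprised 7 of complex I, 1 of complex III, 3 of complex IV and 2 of complex V. Ndufa4 was counted with complex I by its name, although its product is a subunit of complex IV.

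The study compared 3 wild-type (WT) samples with 3 knockout (KO) samples, all primary MEFs of C57BL/6 mice at passage 3, prepared from mid-gestation embryos. The WT cells were Kansl1fl/fl, with both Kansl1 alleles flanked by loxP sites and no Cre. The KO cells were Kansl1fl/fl/CAG-cre, with the same alleles and a tamoxifen-inducible Cre recombinase driven by the broadly active CAG promoter. Cells of both genotypes were exposed to 1 μM tamoxifen for 48 h, in medium with 10% serum per the labels. The genotypes thus differed in Kansl1 and in Cre, and the effects of the deletion and of active Cre cannot be told apart with these groups. The labels name no batch or date. The study's methods describe 3 mice per group, and the labels number the samples WT 4, WT 5 and WT 8 and KO 3, KO 7 and KO 10, the order in which values are given below.

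Oxidative phosphorylation is the process by which the inner mitochondrial membrane turns the energy of food into ATP. Complex I takes electrons from NADH, complex II takes them from succinate, and both pass them through ubiquinone to complex III, cytochrome c and complex IV, where oxygen is reduced. Complexes I, III and IV pump protons, and the ATP synthase, complex V, uses their return flow to make ATP. All complexes but complex II combine subunits from nuclear and mitochondrial DNA, so that transcripts made in separate compartments serve a single enzyme. KANSL1 is a scaffold of the nonspecific lethal complex, a chromatin complex that contains the histone acetyltransferase MOF (gene Kat8).

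Kansl1 itself was at 28.5, 26.7 and 24.4 TPM in WT and 13.7, 15.8 and 14.4 TPM in KO. Every KO sample was below every WT sample, and the KO mean was 55.1% of the WT mean. Its log2 fold change was -0.82 (SE 0.11), with an adjusted p of 0.000859 by limma with Benjamini-Hochberg adjustment. The values cover the whole gene, so RNA with and without the deleted part cannot be told apart. Reads recovered from the TPM values numbered 17655495 to 27718259 per sample, the lowest in KO 3. The 10 fibroblast markers on the list checked were all detected, with a summed level of 10280 to 14860 TPM in WT and 11010 to 14450 TPM in KO, and none was called changed. WT 4 was the lowest WT sample for all of them but Vim. Col1a1 was at 3080 TPM in WT 4 and at 5805 and 4958 TPM in WT 5 and WT 8. Of the 8 macrophage markers listed, 4 were expressed enough to be tested, and Lyz2, Cd68 and Csf1r, which averaged 1 TPM or more in both genotypes, were higher in every KO sample. The other, Adgre1, was also higher in every KO sample but passed the limit through KO alone, and the 4 markers under the limit overlapped between groups. Lyz2 was called higher with a log2 fold change of 1.59 (adjusted p = 0.00142). The summed level of the 8 markers was 28.1 to 32.0 TPM in WT and 64.1 to 134 TPM in KO, and none was at 0 in all samples. Ptprc and Itgam averaged 0.153 and 0.183 TPM in KO. Muscle markers summed to 360 to 449 TPM in WT and 325 to 407 TPM in KO, and the erythroid markers were at or near 0. The epithelial keratins Krt8 and Krt18 and the endothelial receptor Kdr were higher in every KO sample, though not called. Summed epithelial markers were at 40.4 to 45.8 TPM in WT and 49.3 to 66.4 TPM in KO, and endothelial markers at 1.10 to 1.87 TPM in WT and 2.32 to 3.10 TPM in KO, with the defining markers Epcam, Cdh1, Pecam1 and Cdh5 under 1 TPM in all samples. The cartilage factor Sox9 was also higher in every KO sample, at a log2 fold change of 0.54 (adjusted p = 0.00708), and was called with median-of-ratios scaling, at 0.64 (adjusted p = 0.000791), a scaling under which 3.2% of all genes tested were called higher. The cartilage gene Acan was lower in every KO sample, at a log2 fold change of -0.53 (adjusted p = 0.105), and Col2a1 overlapped between groups, neither of them called. The part of such cells in the results on OXPHOS genes was not tested. In bulk RNA, fewer cells of a type and less RNA per cell cannot be told apart.

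A gene was called lower or higher where the adjusted p (limma on log2(TPM + 1), Benjamini-Hochberg adjustment over all 14799 genes tested) was under 0.005 and the log2 fold change exceeded 0.5 in size. These are the thresholds of the study. Of the 92 OXPHOS genes, 13 were called lower in KO and 0 higher, where 9.03% of all genes tested were called lower and 1.64% higher. At an unadjusted p under 0.05, 39 of the 92 were lower and 2 higher, where 27.2% of all genes tested were lower and 12.2% higher. With the threshold on the adjusted p set at 0.05, 20 were called lower and 0 higher. At that threshold 16.6% of all genes tested were called lower and 4.69% higher. The 39 and the 20 include Cox7a1, which entered the test through its WT level alone. All 13 called genes were nuclear, 10 of them in complex I, 2 in complex III and 1 in complex V. By complex, 10 of 35 nuclear genes (28.6%) were called lower in complex I, 0 of 4 in complex II, 2 of 9 in complex III, 0 of 14 in complex IV and 1 of 17 in complex V. None of the 13 mitochondrial mRNAs was called, and none had an unadjusted p under 0.05. The median log2 fold change was -0.43 for nuclear complex I genes, against -0.07 for all genes tested.

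**Figure D1:**
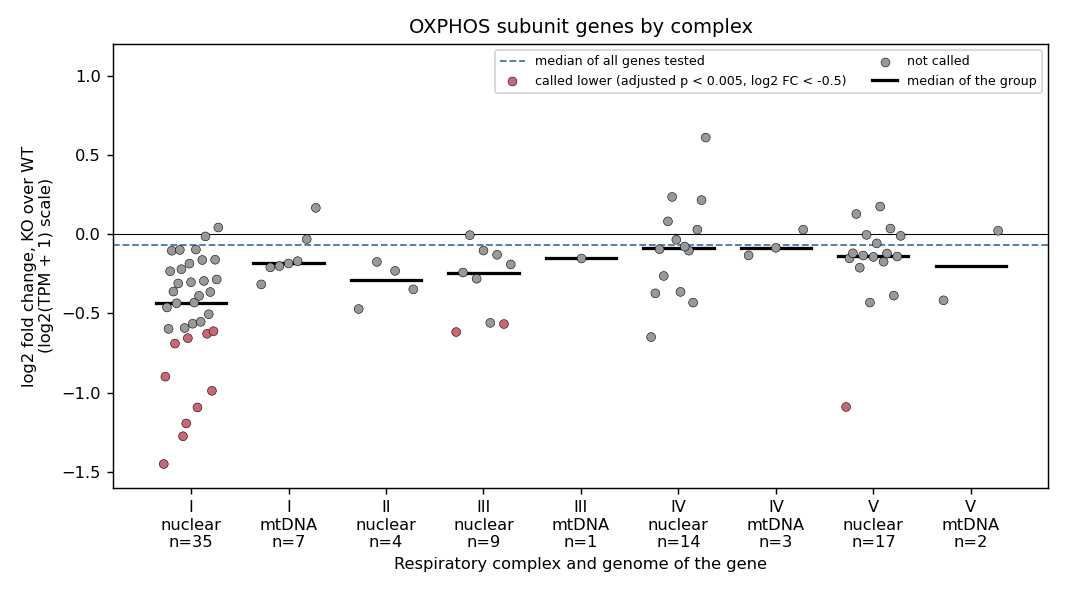
Each point is 1 OXPHOS gene, with its log2 fold change (KO over WT, on the log2(TPM + 1) scale) on the y axis and its complex and genome on the x axis. Red points were called lower, black bars are group medians and the dashed line is the median of all genes tested (-0.07). Nuclear complex I genes have a median of -0.43 and reach down to -1.45, whereas the mitochondrial mRNAs lie between -0.42 and 0.17.

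OXPHOS genes are abundantly expressed, with a median WT level of 77.2 TPM against 11.8 TPM for all genes tested. When the fit was limited to the 7747 genes that averaged 10 TPM or more, 12.1% were called lower. In that fit 15 of 33 complex I genes, 0 of 4 complex II genes, 3 of 9 complex III genes, 0 of 11 complex IV genes and 1 of 15 complex V genes were called lower, which is 19 of 72 nuclear OXPHOS genes (26.4%).

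Complex I is an L-shaped enzyme. Its peripheral arm binds NADH and carries the iron-sulfur clusters, and its membrane arm pumps protons. Of its 35 nuclear genes, 34 had a negative log2 fold change and 25 had every KO sample below every WT sample, where 57.4% and 29.9% of all genes tested did so. The called genes came from both arms, 6 of 16 in the peripheral arm and 4 of 18 in the membrane arm, with Ndufa4 in neither, where 9.03% of all genes tested were called lower. They came likewise from both classes of subunit, 2 of 7 core subunits, which are shared with bacterial complex I and carry out catalysis, and 8 of 27 accessory subunits. Median log2 fold changes were -0.56 for the peripheral arm and -0.41 for the membrane arm. The assignment of subunits to arms was written after their values were known and is given as a description. Leaving out members with a near-identical copy, 10 of 62 nuclear genes and 8 of 30 complex I genes were called lower. Leaving out members whose exons overlap an antisense gene, 10 of 54 nuclear genes and 8 of 23 complex I genes were called lower, against the same 9.03%.

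The largest fall was in Ndufa9 (ENSMUSG00000000399.10, chr6:126821721-126849136, minus strand in GRCm38/mm10), an accessory subunit of the peripheral arm near the ubiquinone site. It was at 66.4, 59.7 and 54.1 TPM in WT and 18.6, 22.3 and 23.2 TPM in KO. The highest KO sample was less than the lowest WT sample, and the KO mean was 35.6% of the WT mean. Its log2 fold change was -1.45 (SE 0.12), with an adjusted p of 0.000170. Exons of Ndufa9 overlap 67 bases of an antisense gene, 1700018A23Rik, and how the counting treated strand is not given in the sources used here.

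Ndufv1 (ENSMUSG00000037916.14, chr19:4007384-4012806, minus strand) encodes the core subunit that binds NADH and flavin and accepts the first electrons. It was at 63.8, 63.7 and 58.1 TPM in WT and 23.4, 29.4 and 26.9 TPM in KO. The WT samples were close together and far above all 3 KO samples, with a log2 fold change of -1.19 (SE 0.11) and an adjusted p of 0.000222. Ndufs8 (ENSMUSG00000059734.7, chr19:3908863-3912774, minus strand), the other core subunit called, carries iron-sulfur clusters at the inner end of the electron path. It was at 61.9, 73.6 and 62.1 TPM in WT and 40.8, 43.8 and 43.3 TPM in KO. The groups did not overlap, and the change was smaller, with a log2 fold change of -0.61 (SE 0.10) and an adjusted p of 0.00258. The other 5 core subunits were not called. Ndufs7, which holds the last iron-sulfur cluster before ubiquinone, had a log2 fold change of -0.56 (adjusted p = 0.00581) and Ndufs1, the largest core subunit, had -0.59 (adjusted p = 0.00779), both just short of being called. Ndufs3 had a log2 fold change of -0.36 (adjusted p = 0.0486) and Ndufv2 had -0.23 (adjusted p = 0.151).

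The remaining called subunits of the peripheral arm were accessory. Ndufa5 (ENSMUSG00000023089.12, chr6:24518666-24528013, minus strand) was at 48.2, 50.5 and 41.2 TPM in WT and 19.4, 23.4 and 21.1 TPM in KO. All KO samples were below the lowest WT sample, with a log2 fold change of -1.09 (SE 0.12) and an adjusted p of 0.000362. Ndufs6 (ENSMUSG00000021606.8, chr13:73319838-73328542, minus strand), a zinc-binding subunit, was at 50.6, 47.9 and 40.3 TPM in WT and 19.1, 23.8 and 25.7 TPM in KO. It too showed no overlap, at a log2 fold change of -0.99 (adjusted p = 0.000980). Ndufs6 shares 30 exonic bases with the antisense gene Mrpl36 and has a near-identical copy, Ndufs6b, which averaged 0.101 TPM. Ndufv3 (ENSMUSG00000024038.17, chr17:31520115-31531331, plus strand), a small subunit of the NADH-binding module, was at 17.2, 19.8 and 17.03 TPM in WT and 9.14, 12.3 and 11.1 TPM in KO. It was the least certain of the complex I calls, with a log2 fold change of -0.69 (adjusted p = 0.00437).

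In the membrane arm, Ndufb3 (ENSMUSG00000026032.8, chr1:58586384-58595964, plus strand) fell most. It was at 82.3, 72.6 and 61.6 TPM in WT and 24.3, 30.4 and 33.03 TPM in KO. WT samples spread more for this gene than for Ndufv1, but the groups were well apart, with a log2 fold change of -1.27 (SE 0.14) and an adjusted p of 0.000420. Ndufa10 (ENSMUSG00000026260.12, chr1:92439010-92473860, minus strand), which resembles nucleoside kinases, was at 70.2, 60.7 and 59.1 TPM in WT and 29.6, 36.9 and 34.1 TPM in KO. The KO mean was 52.96% of the WT mean, with a log2 fold change of -0.90 (adjusted p = 0.000766). Ndufs5 (ENSMUSG00000028648.13, chr4:123712710-123718202, minus strand) and Ndufb7 (ENSMUSG00000033938.5, chr8:83566671-83571626, plus strand) encode subunits on the intermembrane space side. Ndufs5 was at 70.9, 78.8 and 65.97 TPM in WT and 40.6, 48.1 and 47.02 TPM in KO. Its log2 fold change was -0.66 (adjusted p = 0.00248), and some of its reads may be shared with a near-identical copy, BC002163, which averaged 8.06 TPM and was itself lower in every KO sample. Ndufb7 was at 16.97, 17.4 and 15.9 TPM in WT and 9.55, 11.3 and 10.7 TPM in KO. Although its level was among the lower ones in the complex, the samples within each group lay close together and the log2 fold change was -0.63 (adjusted p = 0.00305).

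**Figure D2:**
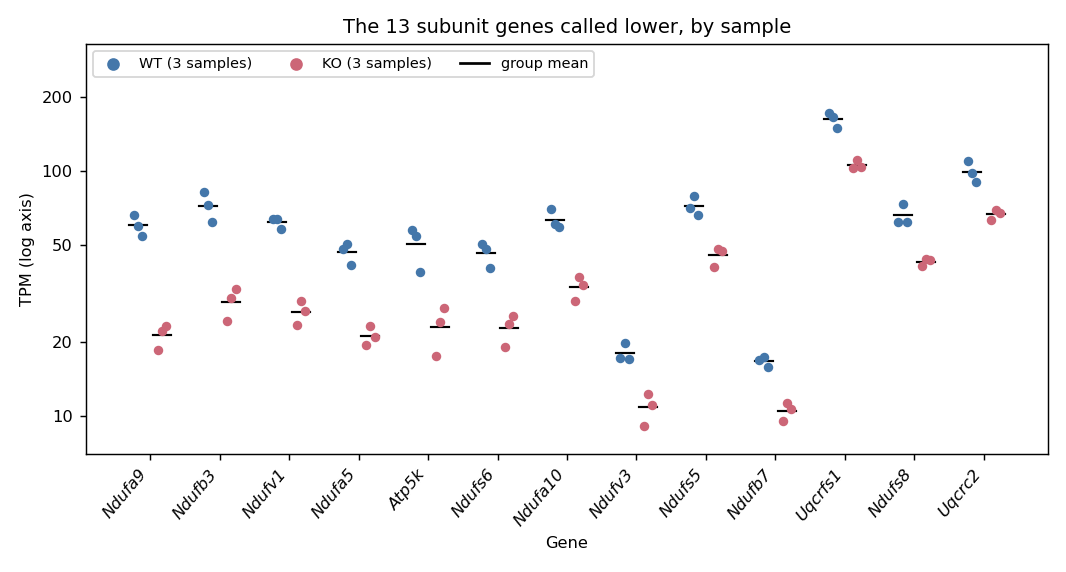
TPM (log axis) of the 13 OXPHOS genes called lower, in each of 3 WT samples (blue) and 3 KO samples (red), with the group mean as a black bar. In every gene shown, all KO samples lie below all WT samples, with KO levels from 9.14 TPM in Ndufv3 to 111 TPM in Uqcrfs1.

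Ndufa9, Ndufb3, Ndufv1, Ndufa5, Ndufa10 and Ndufs6 were called with any 1 sample left out. The other 7 calls all ended without WT 5, and all ended without KO 3. Without WT 5 the adjusted p (limma, Benjamini-Hochberg) was 0.0201 for Ndufv3, 0.0170 for Ndufb7, 0.0147 for Ndufs8, 0.0126 for Ndufs5, 0.0143 for Uqcrc2, 0.00910 for Uqcrfs1 and 0.00697 for Atp5k. Without KO 3 it was 0.00733 to 0.0145 for these genes, and their log2 fold changes stayed negative, between -0.91 and -0.53. Ndufb7 and Ndufv3 lost their calls without any 1 of the 6 samples, Ndufs5 and Uqcrc2 without any but WT 8, Ndufs8 without any but WT 4, Uqcrfs1 also without KO 10, and Atp5k also without WT 4 or KO 7. In complex I the count of calls was 6 without WT 5, without KO 3 or without KO 10, where 4.16%, 4.39% and 5.31% of all genes tested were called lower.

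Most complex I genes were not called. Of these 25, Ndufc1 came nearest, with a log2 fold change of -0.60 (adjusted p = 0.00518). Ndufs4, an accessory subunit whose loss is a known cause of Leigh syndrome, was at 27.02, 26.1 and 20.2 TPM in WT and 15.99, 16.6 and 16.1 TPM in KO. Its groups did not overlap, but its adjusted p of 0.0106 missed the threshold. At the other end, Ndufa6 was the only one with a positive log2 fold change, 0.04 (SE 0.13), with a 95% interval of -0.26 to 0.34. Ndufa7 was at a log2 fold change of -0.01 (95% interval -0.27 to 0.24) and Ndufa12 at -0.10 (95% interval -0.34 to 0.14). The lower bounds for these 3 genes were all well above the log2 fold change of Ndufa9. Ndufa13 was at 65.8 ± 7.69 TPM in WT and 61.3 ± 4.97 TPM in KO (SD, n = 3 each), and Ndufa8, an abundant accessory subunit, was at 119 ± 5.14 TPM in WT and 95.98 ± 6.35 TPM in KO (SD, n = 3 each), with a log2 fold change of -0.30 (adjusted p = 0.0397). Summed over the 35 nuclear genes, complex I RNA was at 2050, 2000 and 1814 TPM in WT and 1325, 1582 and 1471 TPM in KO, so that all KO sums lay below all WT sums.

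The promoters of the members were searched for known motifs, because these genes moved to different extents within a single complex. RefSeq promoter sequences (GRCm38.p6, from 250 bases before to 50 after the start, position 1 being the first transcribed base) were matched for 64 of the 79 nuclear members, including 12 of the 13 called. The motif known for the factor YY1, the 11 letters in capitals in the windows that follow, was present on either strand in 4 members, which were all complex I genes, and in 0.755% of all promoters in the table and 1.86% of those of genes tested. Of these 4 genes, Ndufa9 and Ndufs6 were called lower, and Ndufs7 and Ndufs4 missed the threshold on p. For comparison, 10 of 35 nuclear complex I genes (28.6%) and 9.03% of all genes tested were called lower. The motif was in 2 of 12 called members and 2 of 52 others. Complex I genes made up 31 of the 64 matched promoters. The following windows show the YY1 motif in capitals within 30 bases, read 5′ to 3′ on the strand of the gene, to show that its place is alike in all 4 genes.
Ndufa9 at chr6:126849095-126849124 (minus strand, motif from position 30): ttgtgggagAAGATGGCGGCcgccgtccgc
Ndufs6 at chr13:73328433-73328462 (minus strand, motif from position 34): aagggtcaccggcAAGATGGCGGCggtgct
Ndufs7 at chr10:80249464-80249493 (plus strand, motif from position 25): gccgaggccAAGATGGCGGCgctggcgggt
Ndufs4 at chr13:114388045-114388074 (minus strand, motif from position 36): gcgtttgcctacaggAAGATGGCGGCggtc

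All 4 motifs began at positions 25 to 36, on the coding strand of the gene. The motif holds the letters ATG. Whether these are the start codon of each protein, which would also place them alike, was not examined. The motif known for nuclear respiratory factor 1 (NRF1), the 10 letters in capitals in the next windows, reads the same on both strands and was present in 5 of the 64 promoters (7.81%), against 1.07% of all promoters and 2.32% of those of genes tested. Of the called genes, Atp5k alone had it. The other genes were Ndufa11, Uqcrc1, Atp5g2 and Cox6a1, with log2 fold changes from -0.31 (Ndufa11) to -0.09 (Cox6a1), none of them called. The NRF1 motif is shown in capitals for Atp5k and for Cox6a1, an abundant gene that was not called.
Atp5k at chr5:108434430-108434459 (minus strand, motif from position -50): tttcactgcgGCGCATGCGCctttctggct
Cox6a1 at chr5:115349101-115349130 (minus strand, motif from position -162): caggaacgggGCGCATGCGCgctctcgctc

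Motif CCGGAAG, known for ETS factors such as GABPA (also called nuclear respiratory factor 2), was present on either strand in 17 of the 64 promoters (26.6%), against 9.93% of all promoters and 20.4% of those of genes tested. It was in 3 of 12 called members (25.0%) and 14 of 52 others (26.9%). The called genes with this motif were Atp5k, Ndufb7 and Ndufs8, shown with the motif or its reverse complement (CTTCCGG) in capitals.
Atp5k at chr5:108434369-108434398 (minus strand, motif from position 13): cctcagttgagCTTCCGGcgcgaaggtcac
Ndufb7 at chr8:83566727-83566756 (plus strand, motif from position -20): gcctagatgacCCGGAAGacactgaagggg
Ndufs8 at chr19:3912741-3912770 (minus strand, motif from position 16): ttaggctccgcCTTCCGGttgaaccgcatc

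Motif GGGCGG, known for SP1, was on either strand in 26 of the 64 promoters (40.6%), against 38.2% of all promoters and 69.6% of those of genes tested. It was in 3 of 12 called members (25.0%) and 23 of 52 others (44.2%). The median GC content of the member promoters was 57.8%, against 62.3% for genes tested. Called members had a median of 59.0% and the others 56.8%. A match describes these letters in this window and does not show that a factor binds there.

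Complex II is the only complex made entirely from nuclear genes, and also serves as succinate dehydrogenase of the citric acid cycle. None of its 4 genes was called by limma on log2(TPM + 1) or by voom, although 2 had an unadjusted p under 0.05 (39.4% of all genes tested did), all had a negative log2 fold change and 3 had KO samples all below WT samples. Of all genes tested, limma called 9.03% lower, 57.4% had a negative log2 fold change and 29.9% had KO samples all below WT samples. Sdhc, a membrane anchor that helps bind ubiquinone, was at 73.4, 71.9 and 61.5 TPM in WT and 42.7, 53.1 and 52.8 TPM in KO. It had the largest difference, a log2 fold change of -0.47 (adjusted p = 0.0175). Sdhd, the other membrane anchor, was at 166, 153 and 145 TPM in WT and 116, 123 and 124 TPM in KO. The log2 fold change was -0.35 (adjusted p = 0.0217). The catalytic subunits differed less. Sdhb, which carries the iron-sulfur clusters, had a log2 fold change of -0.23 (adjusted p = 0.160) and Sdha, the flavoprotein that oxidises succinate, had -0.18 (adjusted p = 0.191).

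Complex III passes electrons from ubiquinol to cytochrome c. Uqcrfs1 (ENSMUSG00000038462.3, chr13:30540308-30545362, minus strand), the Rieske iron-sulfur protein at its catalytic centre, was called lower. It was at 173, 166 and 150 TPM in WT and 103, 111 and 104 TPM in KO. KO samples were tightly grouped and the log2 fold change was -0.62 (SE 0.10), with an adjusted p of 0.00172. Uqcrc2 (ENSMUSG00000030884.12, chr7:120635176-120659524, plus strand), a core protein on the matrix side, was at 110, 97.9 and 90.2 TPM in WT and 63.1, 69.3 and 67.3 TPM in KO. It was also called, at a log2 fold change of -0.57 (adjusted p = 0.00369), but 504 of its exonic bases overlap the antisense gene Pdzd9. Uqcrb, which lies by the ubiquinone site, had a similar log2 fold change, -0.56 (SE 0.16), but WT samples of 81.3, 63.1 and 49.2 TPM were far apart and it was not called (adjusted p = 0.0311). Of the rest, Uqcrc1 had a log2 fold change of -0.28 (adjusted p = 0.0542) and Cyc1, cytochrome c1, had -0.13 (adjusted p = 0.409). Uqcrq was at a log2 fold change of -0.01 (SE 0.12) with a 95% interval of -0.28 to 0.27. Of the 9 genes, 2 were called lower, where 9.03% of all genes tested were. All 9 had a negative log2 fold change and 5 had every KO sample below every WT sample, where 57.4% and 29.9% of all genes tested did.

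Complex IV, cytochrome c oxidase, hands electrons to oxygen. None of its 14 nuclear genes was called in either direction by limma or by voom. Of all genes tested, limma called 9.03% lower and 1.64% higher. An unadjusted p under 0.05 was found for 7 of the 14, of which 5 were lower and 2 higher. Of all genes tested, 39.4% had such a p, 27.2% lower and 12.2% higher. The 5 lower genes include Cox7a1, which entered the test through its WT level alone. The median log2 fold change of the 14 genes was -0.09, or 0.018 under median-of-ratios scaling, and -0.15 without KO 7, -0.049 without WT 5 and -0.028 without KO 3. Cox4i1, the common isoform of subunit 4, was at 165, 153 and 142 TPM in WT and 136, 152 and 147 TPM in KO. Cox8a was at 450, 420 and 397 TPM in WT and 395, 433 and 409 TPM in KO. In both genes the groups overlapped, with 95% intervals of the log2 fold change of -0.30 to 0.14 and -0.25 to 0.18. Cox6b1, which faces the intermembrane space, was at 303, 261 and 230 TPM in WT and 177, 207 and 201 TPM in KO. Here the groups did not overlap, with a log2 fold change of -0.43 (adjusted p = 0.0257). Cox5a was at a log2 fold change of 0.21 (adjusted p = 0.170), Cox7b at 0.03 (adjusted p = 0.855) and Ndufa4 at -0.10 (adjusted p = 0.536).

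Several complex IV subunits, and subunit c of complex V, exist as isoforms from separate genes, and pairs were compared as a percent of the partner in each sample. How often such ratios separate the groups for other gene pairs was not examined. Cox7a2l was at 143, 144 and 130 TPM in WT and 159, 178 and 154 TPM in KO. All KO samples were higher, at a log2 fold change of 0.24 (adjusted p = 0.104), which was not called, and 13.3% of all genes tested had KO samples all above WT samples. Its partner Cox7a2 was at 113, 113 and 102 TPM in WT and 77.05, 85.8 and 90.4 TPM in KO, with a log2 fold change of -0.37 (adjusted p = 0.0221). Thus Cox7a2l was 126%, 127% and 128% of Cox7a2 in WT and 207%, 208% and 171% in KO, a ratio with no overlap between groups. Cox6b2, an isoform best known from testis, had the largest positive log2 fold change of any member, 0.61 (adjusted p = 0.0736). It was at 9.02, 7.21 and 4.19 TPM in WT and 10.8, 12.1 and 8.79 TPM in KO. The groups overlapped in TPM, but as a percent of Cox6b1 it was 2.98%, 2.76% and 1.82% in WT and 6.11%, 5.85% and 4.37% in KO. Cox4i2, the isoform associated with lung and with low oxygen, was under the 1 TPM limit on the mean over samples, at 0.470, 0.145 and 0.268 TPM in WT and 1.40, 2.10 and 1.42 TPM in KO. These values rest on 1 to 3 reads in each WT sample and 8 to 16 in each KO sample. Cox4i2 entered the test through its KO level alone, so no fold change is given. Cox7a1, the heart and muscle isoform, was at 1.15, 1.71 and 1.58 TPM in WT and 0.514, 0.579 and 0.628 TPM in KO. Only 2 to 8 reads per sample lay behind these values. It was not called, and it entered the test through its WT level alone. The muscle isoform Cox6a2 was at 0.544, 3.19 and 1.24 TPM in WT and 0.404, 3.34 and 1.81 TPM in KO, and the groups overlapped.

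The ATP synthase, complex V, consists of a catalytic head, F1, and a membrane part, Fo. None of the 5 F1 genes was called by limma, and none had an unadjusted p under 0.05. Of all genes tested, 9.03% were called lower and 1.64% higher, and 39.4% had an unadjusted p under 0.05. Atp5b, the catalytic beta subunit and the most abundant nuclear member, was at 856, 756 and 693 TPM in WT and 704, 761 and 742 TPM in KO. Atp5a1, the alpha subunit, was at 517, 515 and 450 TPM in WT and 405, 474 and 462 TPM in KO. The groups overlapped in both, with log2 fold changes of -0.06 (SE 0.11) and -0.14 (SE 0.11), and the F1 genes ranged from -0.14 to 0.04. Atp5k (ENSMUSG00000050856.16, chr5:108433244-108434448, minus strand) was the single gene called in this complex. It encodes subunit e, a small Fo subunit at the interface of ATP synthase dimers, and was at 57.7, 54.2 and 38.9 TPM in WT and 17.6, 24.1 and 27.6 TPM in KO. The KO mean was 46.02% of the WT mean, with a log2 fold change of -1.09 (SE 0.19) and an adjusted p of 0.00268, the largest standard error among the called genes. An annotated pseudogene, Atp5k-ps2, is near-identical over 56.6% of a transcript of Atp5k. The next lowest nuclear gene was Atp5mpl, at a log2 fold change of -0.43 (adjusted p = 0.0132), followed by Atp5h, subunit d, at -0.39 (adjusted p = 0.0174), neither called. At the other end, Atp5md, needed for ATP synthase dimers, had a log2 fold change of 0.17 (adjusted p = 0.242). It was at 34.00, 34.5 and 29.8 TPM in WT and 35.1, 38.8 and 37.3 TPM in KO.

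The 3 genes for subunit c, whose products form the rotating ring of Fo and are identical once processed, were compared in the same way. Atp5g1 was at 35.2, 39.7 and 36.97 TPM in WT and 37.9, 44.5 and 40.2 TPM in KO. Atp5g3 was at 172, 182 and 169 TPM in WT and 145, 172 and 158 TPM in KO. Neither was called, but Atp5g1 as a percent of Atp5g3 was 20.5%, 21.8% and 21.9% in WT and 26.1%, 25.9% and 25.4% in KO, with no overlap. Some reads of Atp5g1 may be shared with a near-identical copy, Gm10039, which averaged 2.78 TPM and was itself higher in every KO sample. Atp5g2 as a percent of Atp5g3 overlapped, at 92.0% to 99.2% in WT and 91.7% to 97.9% in KO. The level of Atp5g2 is uncertain, since 2 annotated copies, Gm10231 and Gm10175, are identical to a transcript of it and averaged 94.8 and 67.5 TPM.

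Mitochondrial DNA encodes 13 OXPHOS subunits, among them the proton-pumping core of complex I, cytochrome b and the catalytic core of complex IV. Their RNAs are cut from long transcripts that cover each strand. They were by far the most abundant OXPHOS RNAs, together 7.39%, 6.19% and 5.73% of all TPM in WT and 5.61%, 6.54% and 5.93% in KO, against 0.740% to 0.844% in WT and 0.640% to 0.732% in KO for the 79 nuclear genes. The order of WT mean levels ran from mt-Co1, at 14640 ± 1613 TPM in WT and 13320 ± 1009 TPM in KO (SD, n = 3 each), through mt-Co2, mt-Co3 and mt-Cytb down to mt-Nd3, and then to mt-Atp8, at 15.5 ± 4.16 TPM in WT and 12.1 ± 6.75 TPM in KO (SD, n = 3 each). The low value of mt-Atp8, on 14 to 36 reads per sample, concerns a gene that overlaps mt-Atp6.

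None of the 13 mitochondrial mRNAs was called, where 9.03% of all genes tested were called lower and 1.64% higher. Groups overlapped for 12 of the 13, where 29.9% of all genes tested had KO samples all below WT samples and 13.3% all above. The exception was mt-Nd2, at 4031, 2965 and 2828 TPM in WT and 2520, 2774 and 2501 TPM in KO. Its log2 fold change was -0.32 (adjusted p = 0.131). The spread came mostly from WT 4, the highest WT sample for 12 of the 13 mRNAs, all but mt-Atp8. Log2 fold changes were -0.13 (SE 0.13) for mt-Co1, -0.15 (SE 0.13) for mt-Cytb and 0.02 (SE 0.13) for mt-Atp6. The highest was mt-Nd3 at a log2 fold change of 0.17 (SE 0.15) and the lowest mt-Atp8 at -0.42 (SE 0.32). The 95% interval for mt-Co1 was -0.42 to 0.16, and that for mt-Nd6, transcribed alone from the other strand, was -0.53 to 0.12. Near-identical annotated copies exist for 8 of the 13, and 6 of these copies carried values about as high as the gene or higher, such as Gm10925, a copy of mt-Atp6, at 14070 TPM on average. How the authors' counting split reads between gene and copy is not given in the sources used here, so the levels of these genes are uncertain.

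The mitochondrial ribosomal RNAs, transcribed from the same strand as most of the mRNAs, were not members and are given for comparison. The large rRNA mt-Rnr2 was at 689, 576 and 512 TPM in WT and 869, 905 and 855 TPM in KO. All KO samples were higher, with a log2 fold change of 0.58 (adjusted p = 0.00649), just short of the threshold, and with median-of-ratios scaling it passed, at 0.68 (adjusted p = 0.00166). The small rRNA mt-Rnr1 was at 276, 237 and 208 TPM in WT and 318, 348 and 323 TPM in KO. Its KO samples were likewise all higher, with a log2 fold change of 0.46 (adjusted p = 0.0165), which became 0.57 (adjusted p = 0.00173) with median-of-ratios scaling. The ratio of summed rRNA to summed mitochondrial mRNA was 0.0131, 0.0131 and 0.0126 in WT and 0.0212, 0.0192 and 0.0199 in KO. The groups did not overlap in this ratio. The study's methods do not say how ribosomal RNA was removed or left out when the libraries were made. Its rRNA values may thus be what was left over in each library, which was not tested.

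**Figure D3:**
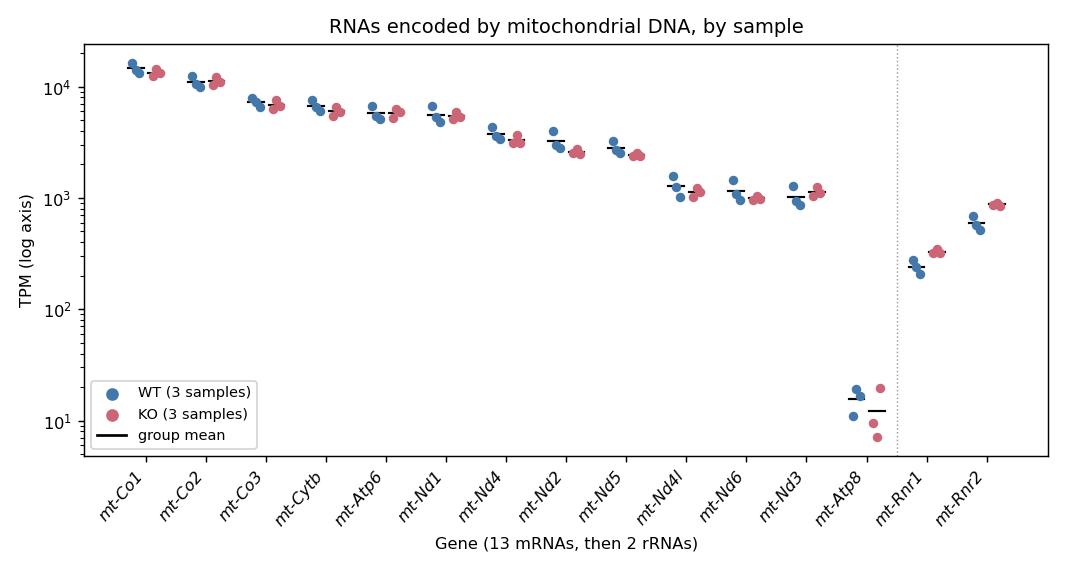
TPM (log axis) of the 13 mitochondrial mRNAs, ordered by WT mean, and to the right of the dotted line the 2 mitochondrial rRNAs, in 3 WT (blue) and 3 KO samples (red), with group means as black bars. WT and KO overlap for 12 of the 13 mRNAs, while both rRNAs are higher in all KO samples. Of all genes tested, 29.9% had KO samples all below WT samples and 13.3% all above.

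Nuclear and mitochondrial members were then set side by side. The median log2 fold change was -0.24 for the 79 nuclear genes and -0.15 for the 13 mitochondrial mRNAs. Leaving out 1 sample at a time moved the mitochondrial median between -0.22, without WT 8, and -0.044, without WT 4, with -0.086 without KO 3, and median-of-ratios scaling gave -0.045 for mitochondrial and -0.14 for nuclear genes. Among nuclear genes, 41 of 79 (51.9%) had every KO sample below every WT sample. The 41 include Cox7a1, which entered the test through its WT level alone. Among mitochondrial mRNAs 1 of 13 had every KO sample below every WT sample, where 29.9% of all genes tested did. The ratio of summed TPM, mitochondrial over nuclear, was 8.76, 7.57 and 7.75 in WT and 8.77, 8.93 and 8.55 in KO, and the groups overlapped. Summed nuclear OXPHOS RNA was at 8435, 8178 and 7395 TPM in WT and 6398, 7323 and 6940 TPM in KO, without overlap.

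Samples were also compared by the median log2 difference of each gene group from the WT mean. Over all genes tested the median was 0.06, 0.04 and -0.09 in WT and -0.21, 0.03 and -0.05 in KO, so KO 3, which was also the shallowest sample, had the lowest median. For nuclear complex I genes the KO medians were -0.57, -0.32 and -0.40. Relative to the median of all genes in the same sample, complex I was lower in each KO sample. The KO medians of complex IV were -0.23, 0.01 and -0.05, close to those of all genes. With median-of-ratios scaling, which moves the median of all genes by 0.09, the complex IV median changed sign to 0.018.

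**Figure D4:**
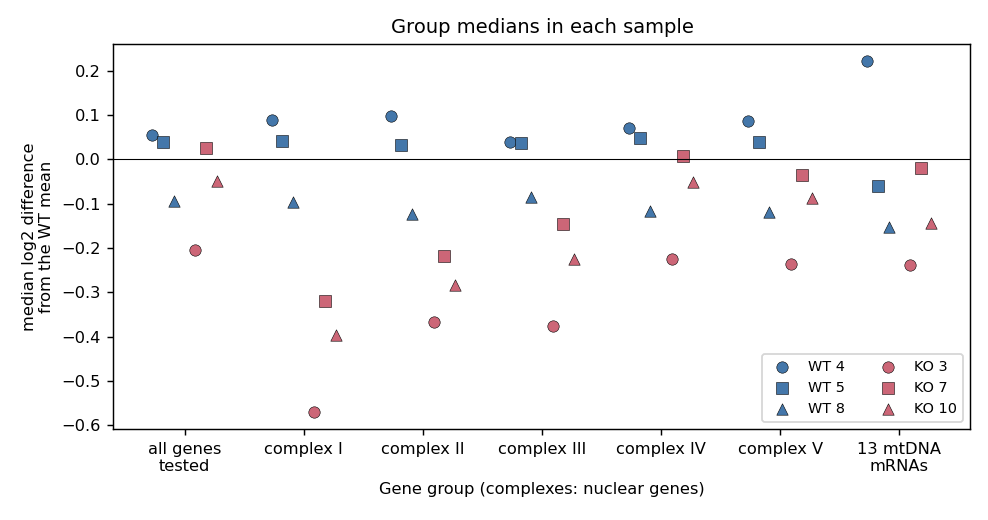
Median log2 difference from the WT mean (y axis) of each gene group (x axis), with 1 marker per sample: WT in blue, KO in red. In KO the complex I medians of -0.57, -0.32 and -0.40 lie below those of all genes tested in the same samples (-0.21, 0.03 and -0.05), while complexes IV and V stay near them.

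Building the complexes needs assembly factors, which are not part of the finished enzymes. Of 47 assembly factor genes tested, 12 (25.5%) were called lower and 0 higher, where 9.03% of all genes tested were called lower. Ttc19, a complex III factor, had a log2 fold change of 0.41 (adjusted p = 0.0196) and was called higher with median-of-ratios scaling, at 0.51 (adjusted p = 0.000515). Without WT 5 the count was 7, and without KO 3 it was also 7, where 4.16% and 4.39% of all genes tested were called lower. For complex I, 6 of 16 were called. Ndufaf1, which helps assemble the membrane arm, was at 25.1, 20.3 and 21.4 TPM in WT and 7.79, 8.66 and 9.63 TPM in KO. It fell by about as much as Ndufb3, with a log2 fold change of -1.26 (adjusted p = 0.000275). Nubpl, which delivers iron-sulfur clusters to complex I, was at 2.37, 2.74 and 2.92 TPM in WT and 0.333, 0.583 and 0.452 TPM in KO. It entered the test through its WT level alone, and among genes with 1 TPM or more in both genotypes 11 of 44 assembly factors were called lower, 5 of 15 for complex I. Ndufaf6 had a log2 fold change of -1.06 (adjusted p = 0.000716) and Dmac1 had -0.88 (adjusted p = 0.000356). Ndufaf3 and Ndufaf8 were called as well, while Timmdc1, another membrane arm factor, was at a log2 fold change of 0.00 (SE 0.10) and not called. The complex II factors were 0 of 3. For complex III, 1 of 6 was called, Bcs1l, which inserts the Rieske protein Uqcrfs1, with a log2 fold change of -0.76 (adjusted p = 0.00239).

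For complex IV, 3 of 18 assembly factors were called lower, where 9.03% of all genes tested were. Cox10, which makes the heme of the complex, was at 16.6, 17.3 and 16.2 TPM in WT and 5.16, 8.43 and 6.45 TPM in KO, with a log2 fold change of -1.23 (adjusted p = 0.000688). Coa3 had a log2 fold change of -0.98 (adjusted p = 0.00104) and Taco1, an activator of translation of mt-Co1, had -0.95 (adjusted p = 0.00129). For complex V, 2 of 4 were called, the chaperones of the F1 beta and alpha subunits. Atpaf1 had a log2 fold change of -0.98 (adjusted p = 0.000704) and Atpaf2 had -0.83 (adjusted p = 0.00268). Among cytochrome c, the acyl carrier Ndufab1 and the enzymes that make ubiquinone, 5 of 11 were called lower: Coq4, Coq5, Coq6, Coq7 and Pdss2. With any 1 of the 6 samples left out, 3 were called. Of all genes tested, 9.03% were called lower with all samples and 4.16% to 6.34% with 1 left out. Coq7, a hydroxylase of ubiquinone synthesis, was at 5.96, 5.96 and 4.75 TPM in WT and 1.77, 1.75 and 2.35 TPM in KO. Its log2 fold change was -1.15 (adjusted p = 0.000962). Cytochrome c (Cycs) was not called, at a log2 fold change of -0.14 (adjusted p = 0.411).

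Transcription of mitochondrial DNA depends on nuclear genes as well. Of 14 tested, 1 was called lower, Polrmt, the mitochondrial RNA polymerase, where 9.03% of all genes tested were. The median log2 fold change of the 14 was -0.52, against -0.07 for all genes tested. In 9 of the 14 every KO sample was below every WT sample, where 29.9% of all genes tested were so. With the threshold on the adjusted p set at 0.05, 8 were called lower, where 16.6% of all genes tested were. Polrmt was at 16.7, 18.9 and 17.1 TPM in WT and 8.01, 9.32 and 8.61 TPM in KO. The KO mean was 49.2% of the WT mean, with a log2 fold change of -0.94 (adjusted p = 0.000515). Tfam, which packages mitochondrial DNA and helps to start its transcription, was at 18.2, 18.6 and 16.3 TPM in WT and 8.98, 12.7 and 11.9 TPM in KO. Its groups did not overlap, but with a log2 fold change of -0.63 (adjusted p = 0.00909) it was not called, and Tfb2m, the second initiation factor, had -0.61 (adjusted p = 0.00543).

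Of 12 tested nuclear regulators of OXPHOS genes none was called, and 5 had an unadjusted p under 0.05, of which 3 were lower and 2 higher, where 39.4% of all genes tested had such a p. Nrf1 had a log2 fold change of -0.09 (adjusted p = 0.593) and Gabpa -0.27 (adjusted p = 0.159). Yy1 was at a log2 fold change of -0.03 (adjusted p = 0.865). The coactivator Ppargc1a was under 1 TPM in both groups, and Ppargc1b had a log2 fold change of -0.25 (adjusted p = 0.474). Esrra was higher in every KO sample, with a log2 fold change of 0.41 (adjusted p = 0.0251), and with median-of-ratios scaling it passed both thresholds, at 0.51 (adjusted p = 0.00494). Kat8, the acetyltransferase partner of KANSL1, had a log2 fold change of -0.52 (adjusted p = 0.0312).

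Many OXPHOS genes start beside a gene on the opposite strand. A protein-coding gene started within 1000 bases in the opposite direction for 30 of the 79 nuclear members (38.0%), against 16.0% of coding genes tested. Among the 13 called members 4 had such a partner, where 21.5% of all coding genes called lower did. Ndufs6 and its partner Mrpl36, a mitochondrial ribosomal protein gene whose start is 29 bases away, were both called lower, Mrpl36 with a log2 fold change of -0.90. The partners of Ndufb3 (Fam126b, -0.27) and Ndufv3 (Wdr4, -0.19) were not called, and the partner of Ndufa5, Asb15, was not tested at this level of expression. Over all members, 4 of the 27 partners tested (14.8%) were called lower, near the 10.9% of all coding genes tested.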

How the data were processed

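RNA sequencing libraries from 3 WT and 3 KO MEF samples were sequenced by the authors, aligned with STAR to mm10 and compared with DESeq2, per the study's methods. The submitters' processing notes also list Bowtie 0.12.2, with no role. The counting program is not given in the sources used here. The authors deposited TPM values per gene and sample, together with their own log2 fold changes and adjusted p-values, which were not used.

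All identifiers matched GENCODE M21. TPM times merged exon length was a whole multiple of 1 step for 100.0% of 17832 to 18650 values checked per sample (tolerance 0.05 reads), which gave the reads per sample. Genes that averaged 1 TPM or more in either genotype were tested. Values were transformed to log2(TPM + 1) and fitted in limma (3.58.1, R 4.3.3) without covariates, letting the variance follow expression, and p-values were adjusted by Benjamini-Hochberg. Fold changes on this scale understate changes of low genes. The fit was tested on simulated data. Copies were found with blastn (2.17.0; at least 95% identity over 50% of a transcript).

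Named were Kansl1, called members, extremes of each complex, mitochondrial mRNAs, isoform pairs, Sdh genes, and called or selected list genes. Members, lists and arms were chosen with earlier results of these data known. Replicates measure the spread between these samples. Values of some members are not reported here.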

Additional observations from a re-analysis of the deposited data

How the results depend on the processing

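The direction held for all 13 called genes in all 14 alternative fits. Ndufa5, Ndufa9, Ndufb3 and Ndufv1 were called in each, and Ndufa10 and Ndufs6 in 13. Testing all genes of the table left 4 members called lower in place of 13, 4 in place of 10 in complex I, and 0 in complexes III and V. Without a variance trend 6 were called, all 6 in complex I, and 0 in complexes III and V. Median-of-ratios scaling left 1 call in complex III, and gave medians of -0.19 for complex II, -0.030 for complex V and, with a change of sign, 0.018 for complex IV. An adjusted p under 0.05 gave 20 members and 1 in complex IV, Cox7a1, which entered the test through its WT level alone. Voom on the recovered reads gave 17 members, a minimum of 10 TPM gave 19, and removing the 2 most abundant RNAs gave 17. Of all genes, 14.5%, 12.1% and 11.3% were called lower in these fits, 1.06% with all genes of the table and 7.76% without a trend, against 9.03%. Leaving out 1 sample at a time gave 6 to 11 members, 6 to 8 in complex I, 0 to 2 in complex III and 0 to 1 in complex V, where 4.16% to 6.34% of all genes were called lower. The lowest counts, 6, came without WT 5 and without KO 3, then 7 without KO 10, 8 without WT 4 and 8 without KO 7. With 3 samples a group, a fit on fewer samples has less power. No paired analysis was possible because WT and KO samples share no replicate number. The gene lists were recounted under the same settings, a step chosen after seeing the data. Assembly factors called lower went from 12 to 3 with all genes tested, 20 with voom, 22 at an adjusted p under 0.05 and 7 to 10 with 1 sample left out, and 1 was higher under median-of-ratios scaling. Ubiquinone enzymes and carriers went from 5 to 1 with all genes, 2 at 10 TPM, where fewer of them were tested, and 3 without any 1 sample. Mitochondrial transcription genes went from 1 to 3 at 10 TPM, 2 without a trend, 3 under median-of-ratios scaling, 3 without the 2 most abundant RNAs, 5 with voom, 8 at 0.05, and 1 to 2 with 1 sample left out. Of the regulators, 1 was lower at 0.05 and 1 higher under median-of-ratios scaling, where 3.2% of all genes were called higher and 9.73% lower, against 1.64% and 9.03%. The lowest depth, 17655495 reads in KO 3, limits genes near 1 TPM such as Cox7a1.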
